A study of Drosophila melanogaster with 2 samples.

Results

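The 7 genes described here, Clk, cyc, per, tim, vri, Pdp1 and cwo, form the core of the Drosophila circadian clock and were taken as a named list from the 13945 protein-coding genes on the 6 chromosome arms. Every peak summit inside one of these genes or within 5 kb of either end was collected, 196562 bp in all on 4 arms. The study measured chromatin immunoprecipitation with sequencing (ChIP-seq) in 1 group of 2 biological replicates, whole embryos of mixed sex collected from 0 to 24 h from a stable transgenic line in which GFP is fused to the C-terminus of CG7987. The assay and antibody labels call the libraries ChIP for CG7987 and a free-text label calls them an input control, so the values below are places of signal, and the part of CG7987 in them was not tested. There is no second genotype, treatment or time, and whole embryos mix tissues, so a site used in few cells and weak occupancy in many cannot be told apart.

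The fly clock is a transcriptional feedback loop. The basic helix-loop-helix proteins CLK and CYC bind E-boxes, with CACGTG as the canonical word, and activate per and tim, whose products return to the nucleus and repress CLK-CYC. In an interlocked loop the same pair activates vri and Pdp1, whose basic zipper products repress and activate Clk, and cwo encodes another E-box binding repressor of the same targets. Oscillation is best known in brain clock neurons and photoreceptors of larvae and adults, and several of these genes, Pdp1 and vri among them, also have developmental roles.

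Peaks came from the deposited list of 4410 that passed the irreproducible discovery rate (IDR), with a lowest signal of 139, and from candidate lists of 30000 peaks each for the pooled replicates, replicate 1 and replicate 2. A pooled rank of 4410 or better marks an IDR peak, since the IDR list and the strongest 4410 pooled candidates hold the same peaks. Signal is the authors' own value per peak, on a scale not given in the sources used here, and read depth is unknown, so replicates are compared by rank within each list.

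The number of sites differed widely between the genes. The IDR list held 21 summits in the 7 windows, 11 at Pdp1, 5 at cwo, 3 at vri and 2 beside cyc, and none at Clk, per or tim. The clock windows held 1.07 IDR summits per 10 kb and 4.83 pooled candidates per 10 kb, against 0.329 and 2.24 over the 6 arms. The arms include sequence outside gene windows and are not a matched reference, and 11 of the 21 summits were at Pdp1. By gene, the density at vri, 0.929 IDR summits per 10 kb, was matched or passed by 21.4% of protein-coding genes. An IDR summit lay within 500 bp of a transcription start site (TSS) at 3 of 7 genes, vri, Pdp1 and cwo, where the share over all protein-coding genes was 20.5%. An IDR summit anywhere in the window was found at 4 of 7, against 48.1% of all protein-coding genes. At least 3 were found at 3 of 7, against 9.13%. Long genes have more room for summits: of the 5 clock genes of 10 kb or more, 3 had at least 3 IDR summits, against 23.2% of the 1977 protein-coding genes of that length. These counts are descriptions of 7 genes, and no test of the list was made.

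**Figure D1:**
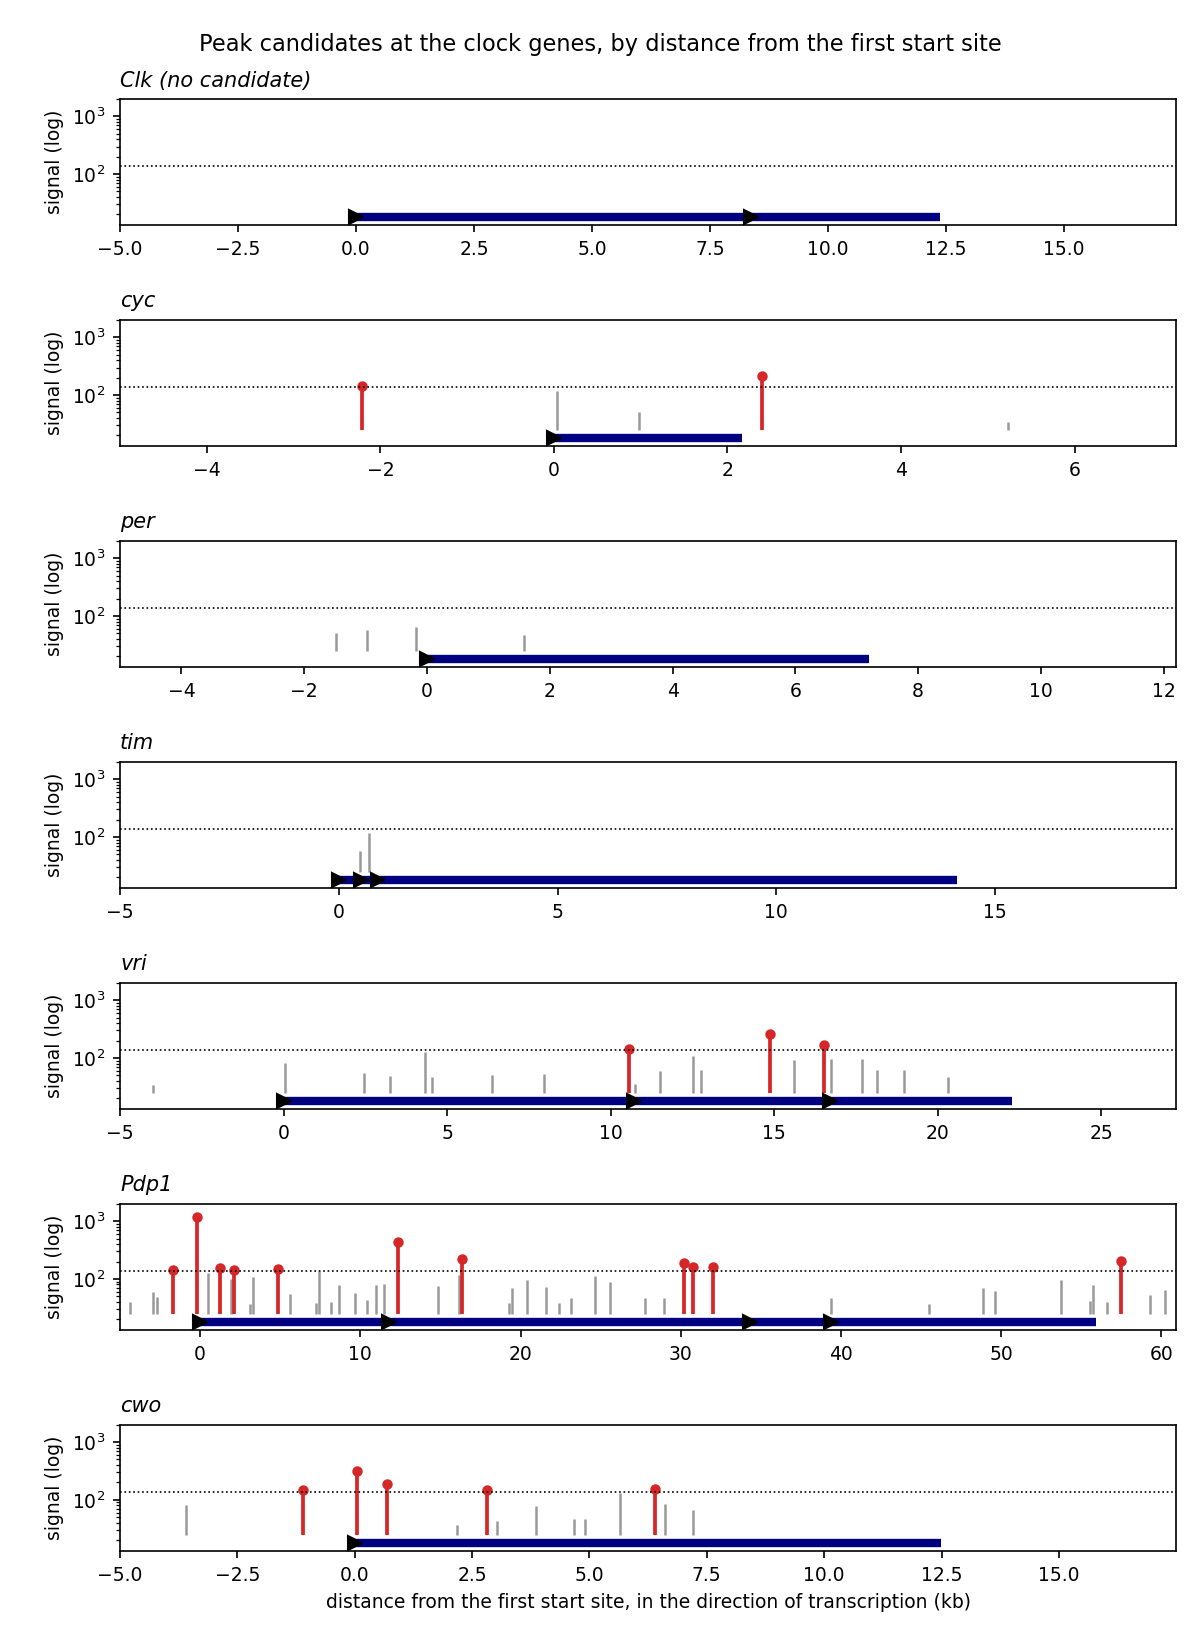
Pooled candidate summits at each clock gene, with distance from its first start site in kb on the x axis and signal on a log y axis; red stems are IDR peaks, grey stems weaker candidates, the blue bar is the gene, arrowheads are start sites and the dotted line is the lowest IDR signal, 139. Pdp1, cwo and vri carry many summits along the gene, while Clk has none.

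Clk (FBgn0023076, chr3L:7763233-7775603, minus strand), which encodes the activator CLOCK, had no summit in any of the 4 lists across its window of 22371 bp. Neither of its 2 TSSs, 8373 bp apart and serving 5 transcripts, had a candidate of the pooled list or of a replicate within 500 bp. Of all protein-coding genes, 19.4% had no pooled candidate in their window and 14.6% had none in the pooled or either replicate list. Among genes of 10 kb or more the share without a pooled candidate was 12%. The pooled candidates on either side of Clk, at 7742192 and 7782461, were 40269 bp apart. Of the 29994 gaps between neighbouring pooled summits on an arm, with a median of 1237 bp, 1.37% were at least that long. That share counts each gap once and so understates how much of an arm lies in such gaps. An empty window of 22371 bp must also lie in a long gap, so the 12% of long genes is the closer reference. Replicate 1 left a gap of 62065 bp across the gene and replicate 2 one of 36987 bp. None of the other 6 genes was empty in this way.

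cyc (FBgn0023094, chr3L:19813770-19815938, minus strand), the gene of CLK's partner CYCLE, is the shortest of the 7 at 2169 bp, and both IDR summits of its window lay outside the gene. A peak with a signal of 217 (pooled rank 1912) had its summit 225 bp past the 3′ end of cyc and 206 bp from a TSS of Cyp305a1, with matched peaks of 89.4 (rank 1327) in replicate 1 and 117 (rank 3123) in replicate 2. The other, with a signal of 146 (rank 4045), lay 2216 bp upstream of cyc and 20 bp from a TSS of Deaf1 and had 51.6 (rank 4134) in replicate 1 and 109 (rank 3517) in replicate 2. Both sites are thus nearer to a neighbour's start site than to that of cyc. At the cyc TSS itself a candidate below the IDR threshold, 32 bp downstream, had a signal of 118 and pooled rank 5730. The replicates differed there: the overlapping replicate 2 peak had a signal of 119.5 and rank 2987, while the nearest replicate 1 peak had 21.1 and rank 18482, and the strongest within 500 bp had 32.8 and rank 8976.

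per (FBgn0003068, chrX:2685580-2692780, plus strand), which encodes the repressor PERIOD, had 4 pooled candidates and none near the IDR threshold. The strongest, 181 bp upstream of its single TSS, had a signal of 64.8 and pooled rank 13324, and its matched peaks had 20.4 (rank 19443) in replicate 1 and 40.7 (rank 15385) in replicate 2. The others lay 970 bp upstream (57.2, rank 15677), 1482 bp upstream (50.6, rank 18306) and 1580 bp downstream in the first intron (46.5, rank 20324). The 3 upstream candidates were overlapped by a candidate of each replicate, at ranks of 18777 or worse in replicate 1, and the intronic one by none.

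tim (FBgn0014396, chr2L:3493986-3508119, minus strand), which encodes TIMELESS, the light-sensitive partner of PER, came closest to the threshold among genes without an IDR peak. Its 10 transcripts start at 3 TSSs within 901 bp, and 2 pooled candidates lay between them. The stronger, at 3507419, had a signal of 116 and pooled rank 5924, and its matched peaks had 57.7 (rank 3323) in replicate 1 and 78.7 (rank 6163) in replicate 2. It lay 185 bp downstream of TSS 2, between that and the TSS used by 6 transcripts, in the first intron of 3 others and in the 5′ UTR of tim-RO. The weaker, at 3507627, had a signal of 56.7 (rank 15852). Its peak overlaps the stronger one and was matched to the same peak of each replicate, so the 2 candidates need not be separate sites. No pooled candidate was found in the remaining tim gene or its flanks, the next ones being 13615 bp past its 3′ end and 5667 bp upstream.

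vri (FBgn0016076, chr2L:5288944-5311223, plus strand) encodes VRILLE, the basic zipper repressor of Clk. Its 5 transcripts start at 3 TSSs, numbered here from the 5′ end, and IDR summits stood at TSS 2 and TSS 3 but not at TSS 1. At TSS 2, used by vri-RC, the summit was 148 bp upstream with a signal of 142 (rank 4226). At TSS 3, used by 3 transcripts, it was 184 bp upstream with 168 (rank 3132). Of the 2857 protein-coding genes with an IDR promoter summit, 73.3% had one at least as high as this, and their median was 207. At TSS 1, 16706 bp upstream of TSS 3, the strongest candidate lay 40 bp downstream with a signal of 81.0 (rank 9953). The strongest vri site was at none of them: it lay between TSS 2 and TSS 3, 1845 bp upstream of TSS 3, at 5303805, with a signal of 264 (rank 1236).

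All 3 vri sites are in the first intron of vri-RE, which spans 18055 bp and held 17 of the 20 pooled candidates inside the gene. The intronic site had 116 (rank 731) in replicate 1 and 139.8 (rank 2220) in replicate 2. The site at TSS 2 had 36.04 (rank 7704) in replicate 1 and 150.4 (rank 1911) in replicate 2, and that at TSS 3 had 39.5 (rank 6579) and 123 (rank 2853). Both promoter sites thus stood within the strongest 4410 of replicate 2 and outside those of replicate 1. The 3 vri sequences follow from the RefSeq Release 6 genome (dm6 coordinates, plus strand, as for the gene), shown because they set the promoter sites beside the stronger intronic one, with CACGTG in capitals where it occurs. The summit is base 51 of each.

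vri promoter 2, chr2L:5299449-5299549: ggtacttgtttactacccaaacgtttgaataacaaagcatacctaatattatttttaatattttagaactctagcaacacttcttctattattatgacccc
vri promoter 3, chr2L:5305416-5305516: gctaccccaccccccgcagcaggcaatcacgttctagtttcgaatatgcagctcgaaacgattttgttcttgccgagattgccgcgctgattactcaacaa
vri intron site, chr2L:5303755-5304004: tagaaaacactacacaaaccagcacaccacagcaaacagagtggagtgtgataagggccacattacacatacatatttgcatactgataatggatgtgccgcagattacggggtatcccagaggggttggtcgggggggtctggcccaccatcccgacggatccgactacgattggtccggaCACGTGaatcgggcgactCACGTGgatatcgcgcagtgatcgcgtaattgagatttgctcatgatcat

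Within 50 bp of the summit, neither the promoter sites nor the intron site held CACGTG. The intron stretch runs further on one side and held 2 copies, 134 and 152 bp from the summit. The promoter stretches do not reach that far. Of the 4 copies in the vri window, the nearest to the promoter 3 summit was 788 bp from it. None had the promoter 2 summit as its nearest IDR summit. Whether the copies bear on the signal was not tested. At promoter 2 the matched replicate 1 summit was 157 bp from the IDR summit, 9 bp downstream of TSS 2. The replicate 2 summit was 22 bp from it. Centred on the IDR summit, the window of promoter 2 was AT-rich, with a G and C content of 29.7%. That was the lowest of the 21 sites, against 51.5% at promoter 3. The median over the 21 clock sites was 44.6%, and 43.6% over all IDR summits.

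Pdp1 (FBgn0016694, chr3L:7811458-7867369, minus strand) encodes the basic zipper activator PAR domain protein 1 and spans 55912 bp. It held the strongest clock peak and the most sites. The summit of that peak lay 178 bp upstream of TSS 1, used by Pdp1-RF and Pdp1-RO, with a signal of 1158. Its rank was 37 in the pooled list, with signals of 501 in replicate 1 (rank 23) and 659.6 in replicate 2 (rank 61). Of the 2857 protein-coding genes with an IDR promoter summit, 23 had one at least as high, Pdp1 included (0.805%), and the median over those genes was 207. The sequence below is that promoter on the minus strand, that of Pdp1, shown because it is the strongest clock site and holds CACGTG, in capitals, at base 125, with the summit at the central base.

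Pdp1 first promoter, chr3L:7867447-7867647: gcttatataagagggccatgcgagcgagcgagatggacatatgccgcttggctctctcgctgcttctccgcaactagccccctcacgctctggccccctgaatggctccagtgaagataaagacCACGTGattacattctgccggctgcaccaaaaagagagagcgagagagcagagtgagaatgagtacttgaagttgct

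None of the other 3 Pdp1 TSSs had an IDR summit within 500 bp. TSS 2 is 11821 bp downstream of TSS 1 and starts 7 transcripts, and the strongest pooled candidate in its window had a signal of 82.9 (rank 9654). The strongest replicate 1 peak in that window, at 7855584, had 35.7 (rank 7814), and the strongest replicate 2 peak, at 7855856 and so at another place, had 96.4 (rank 4369). A strong IDR peak stood just outside that window, 529 bp downstream of TSS 2, with a signal of 439 (rank 416), and with 127 (rank 565) in replicate 1 and 307 (rank 428) in replicate 2. It lies in a 5′ UTR of some transcripts and in an intron of 5 of the 9 transcripts over it. TSS 3 had no candidate of the pooled or replicate lists within 500 bp, and TSS 4 had one with a signal of 47.3 (rank 19900).

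The remaining Pdp1 sites were weaker and mostly intronic. Of the 11 IDR summits, 8 were in the gene, all within the first intron of Pdp1-RF, a span of 49017 bp that also contains the other 3 TSSs. Besides the strong site near TSS 2, they formed a set near TSS 1 (151, 143 and 153 at 4843, 2123 and 1257 bp downstream of it), a site at 7851013 (219.8) and a set of 3 upstream of TSS 3 (187, 163 and 159 at 4074, 3535 and 2303 bp from it). Between 7809880 and 7835376, a stretch of 25496 bp over the 3′ part of the gene, there was no IDR summit. The flanking sites belonged by position to neighbours: one lay 11 bp from a TSS of CG32365 (142) and one 55 bp from a TSS of CG32369 (206).

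Pdp1 had more sites than most genes and is also longer than most. Of all protein-coding genes, 9 had at least 11 IDR summits in their window, Pdp1 included (0.0645%). Of the 307 genes of 50 kb or more 7 did (2.28%), and their median was 1. Per 10 kb Pdp1 had 1.67 IDR summits, a density matched or passed by 11.1% of protein-coding genes. cwo was denser, with 2.22 per 10 kb, matched or passed by 4.66%. The short window of cyc, with 2 summits, had 1.64 per 10 kb, matched or passed by 11.7%, and vri had 0.929, matched or passed by 21.4%.

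cwo (FBgn0259938, chr3R:10388258-10400752, plus strand) encodes CLOCKWORK ORANGE, an E-box binding repressor, and its 3 transcripts share 1 TSS. The strongest cwo peak had its summit 43 bp downstream of that TSS, in the 5′ UTR, with a signal of 311 (rank 856), with 149 (rank 382) in replicate 1 and 162 (rank 1669) in replicate 2. Of the protein-coding genes with an IDR promoter summit 21.0% were at least as high. A second summit 685 bp downstream, still in the 5′ UTR, reached 190.3 (rank 2454). Sites in the first intron, 2817 and 6401 bp downstream, had signals of 148 and 156. The last, 1108 bp upstream with 147, lies inside lncRNA:CR44938 and 235 bp from that gene's TSS.

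**Figure D2:**
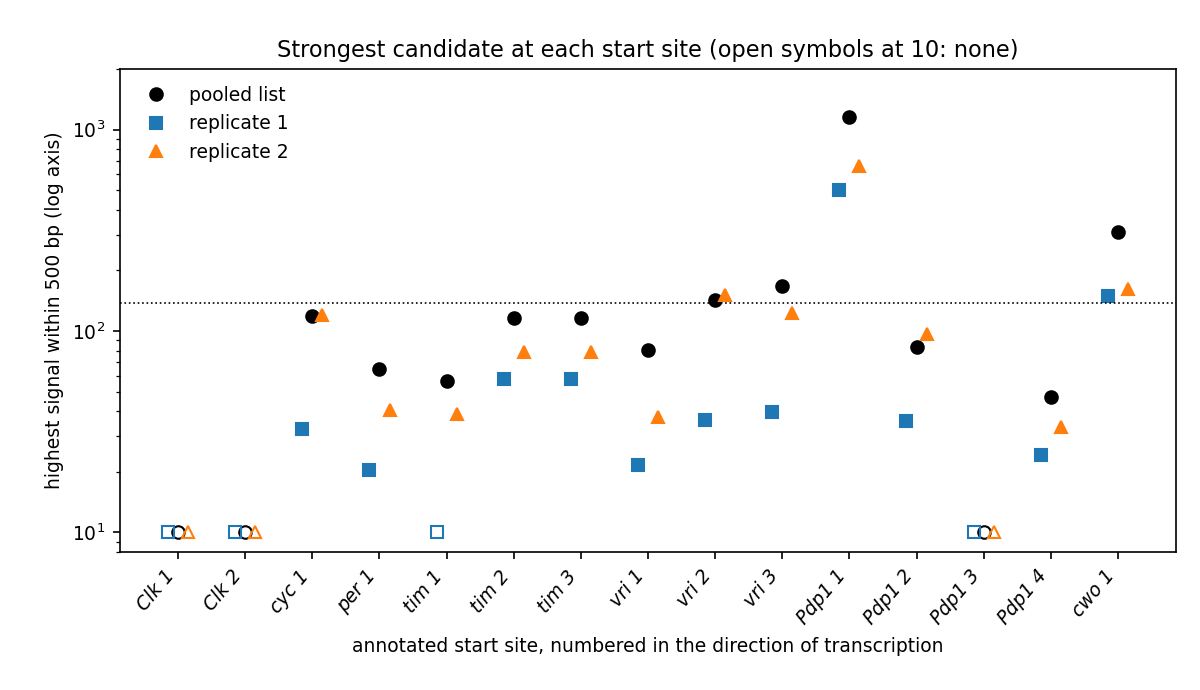
Highest candidate signal within 500 bp of each of the 15 annotated start sites of the clock genes, on a log y axis, with start sites on the x axis; circles are the pooled list, squares replicate 1, triangles replicate 2, open symbols at 10 mean no candidate, and the dotted line is the lowest IDR signal, 139. The pooled values pass the line at vri 2, vri 3, Pdp1 1 and the cwo start site.

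Of the 15 annotated TSSs of the 7 genes, 4 had an IDR summit within 500 bp, where the share over the 19252 TSSs of protein-coding genes was 18.8%. A pooled candidate lay as near to 12 of the 15, against 56%. By gene, 6 of 7 had a pooled promoter candidate, all but Clk, against 55.4% of all protein-coding genes. By first matching class, 4 of the 21 IDR summits were in promoter windows, 10 in introns outside them, 2 in 5′ UTRs, 3 in upstream and 2 in downstream flanks. None was in a coding exon or a 3′ UTR outside promoter windows. Of the 21, 5 were within 500 bp of, and nearest to, another gene's TSS. No shares over all IDR peaks are given for these classes, so the counts describe the 21 sites and no trait of clock genes.

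Below the IDR threshold the clock windows held 74 more pooled candidates, 17 of them ranked between 4411 and 8820. The highest of these were Pdp1 intron sites at 7859947 (136, rank 4568) and 7866859 (125, rank 5265), a cwo intron site at 10393911 (131, rank 4857) and a vri intron site at 5293278 (127, rank 5144). The pooled list labels its entries as peaks and background, and which of these are background was not tested. Peak widths were 376 bp at 13 of the 21 IDR sites, the median of the whole list, and ran from 106 to 395 bp. Neighbouring IDR summits stood 539 to 25496 bp apart in Pdp1, 1661 to 4306 bp in vri and 642 to 3584 bp in cwo. The smallest gaps between pooled summits were 199 bp in Pdp1 and 200 bp in vri and in cwo. Some pooled candidates therefore overlap, and their counts are not counts of separate regions.

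All 21 IDR sites were overlapped by a candidate of both replicates, as were 98.5% of all IDR peaks. Of the 21, 14 were overlapped by one of the strongest 4410 of both replicates, against 62.1% of all IDR peaks. In 13 of 21 the rank was better in replicate 1 and in 8 in replicate 2, while over all matched IDR peaks it was better in replicate 1 at 2086 and in replicate 2 at 2252. The median ranks of the clock sites were 2464 in replicate 1 and 3517 in replicate 2, against 2404.5 and 2221.5 over all IDR peaks. Both replicate summits lay within 100 bp of the IDR summit at 18 sites, and no share over all IDR peaks is given for this count.

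The sites furthest apart in rank were among the weaker ones, with pooled signals of 156 or less. The Pdp1 intron site at 7862526 ranked 12610 in replicate 1 and 5447 in replicate 2 by the peak with the nearest summit, outside the strongest 4410 of both. A stronger replicate 1 peak had its summit further away, at 7862245 (61.6, rank 2919). The cwo intron site at 10394659 ranked 1399 and 7592, the vri site at TSS 2 ranked 7704 and 1911, and the Pdp1 flank site beside CG32365 ranked 1812 and 7080. Between replicates, Pearson's r of log10 signal was 0.708 over the 21 sites, with a rho by Spearman of 0.356, against 0.497 and 0.353 over the 4342 IDR peaks matched in both. Without the first Pdp1 promoter, left out after seeing the data, r over the clock sites was 0.363. Sites share their libraries and are not independent, so no p is given.

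**Figure D3:**
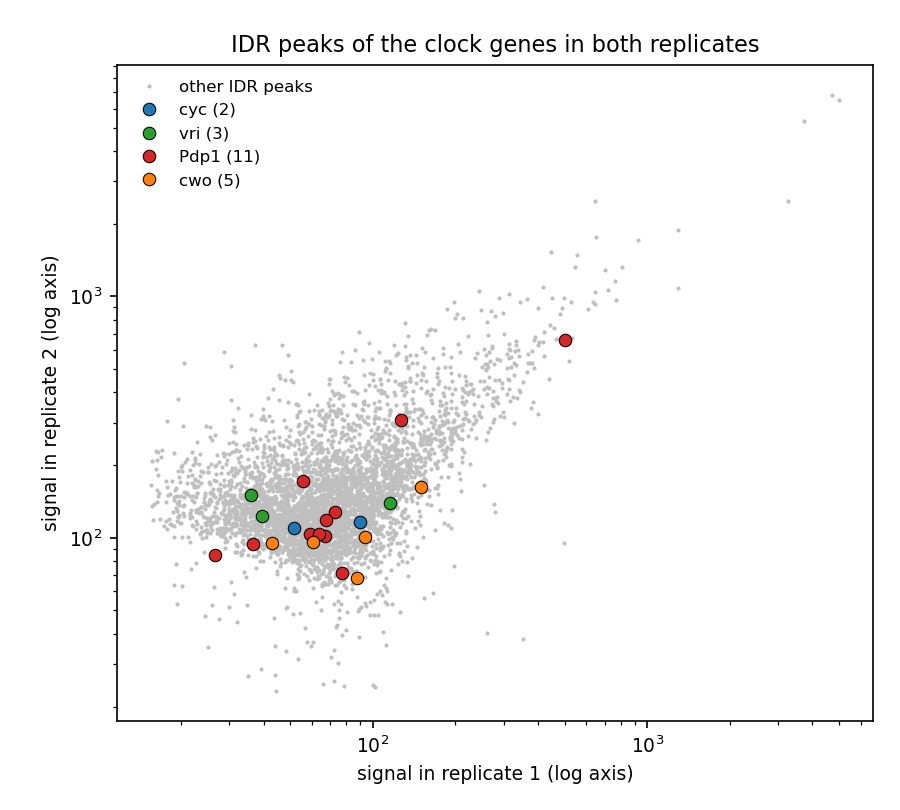
Signal of each IDR peak matched in both replicates, replicate 1 on the x axis and replicate 2 on the y axis, both log; grey points are other IDR peaks and coloured points the 21 clock sites, by gene. The first Pdp1 promoter (501 and 659.6) stands apart, and the other clock sites lie within the cloud of other peaks.

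A ranking by either replicate alone changed which promoters counted. Among the strongest 4410 peaks of replicate 2, promoter summits were found at 4 of the 7 genes, cyc, vri, Pdp1 and cwo, against 20.6% of all protein-coding genes. Among those of replicate 1 they were found at 3, tim, Pdp1 and cwo, against 19.7%. Pdp1 and cwo were thus the genes with a promoter summit in the IDR list and in both of these. The 2 protein-coding genes most like each gene with an IDR promoter summit in replicate signals, by the distance of log10 signal at the strongest promoter summit among 2808 genes, were TP53INP and sug for Pdp1, arr and Pdhb for cwo, and CG10903 and AdipoR for vri. The distances ran from 0.00711 to 0.0647. With 2 replicates such likeness means close signals and no more.

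E-boxes were examined because CLK-CYC and CWO bind them. CACGTG was counted on both strands, and a match is a description of letters, not of binding. The 7 windows held 50 copies, 2.54 per 10 kb against 1.23 over the 6 arms. The arms include sequence outside gene windows and are not a matched reference. Numbers were uneven: 15 at cwo, 14 at Pdp1, 11 at per, 4 at vri, and 2 each at Clk, cyc and tim. Per 10 kb they were 6.67 at cwo, 6.39 at per, 2.12 at Pdp1, 1.64 at cyc and 1.24 at vri. Clk (0.894) and tim (0.829) were below the value over the arms. The summits were mostly elsewhere. A copy lay within 50 bp of 1 of the 21 IDR summits, the first Pdp1 promoter, where 3.22% of all IDR summits and 1.82% of windows of the same length centred on protein-coding TSSs held it. Within 100 bp it was found at 3 of 21, against 5.22% of IDR summits and 2.80% of TSS windows. Both of the other copies, 65 and 76 bp from their summits, were in Pdp1 introns, and they are shown next because they complete that set, on the minus strand, with the summit at the central base and CACGTG in capitals.

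Pdp1 intron, chr3L:7837047-7837247: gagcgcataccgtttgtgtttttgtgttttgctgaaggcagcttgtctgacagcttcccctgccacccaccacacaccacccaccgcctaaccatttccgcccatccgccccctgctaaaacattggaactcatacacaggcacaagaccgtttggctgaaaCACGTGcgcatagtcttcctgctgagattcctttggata
Pdp1 intron, chr3L:7862426-7862626: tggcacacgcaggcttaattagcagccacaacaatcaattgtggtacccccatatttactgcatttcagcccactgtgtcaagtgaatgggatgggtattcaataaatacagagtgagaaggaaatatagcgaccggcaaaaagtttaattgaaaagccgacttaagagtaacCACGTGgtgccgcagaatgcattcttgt

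Among weaker candidates the match to the pooled summit was closer at tim and per. The middle of the tim copy at 3507417 fell 0 bp from the summit of the candidate ranked 5924, and a per copy 1480 bp upstream of its TSS fell 2 bp from a candidate with a signal of 50.6. The per copy 528 bp upstream of the TSS, in a region known for driving rhythmic per transcription, was 347 bp from the nearest pooled summit. In all, 5 of 50 copies lay within 50 bp of a pooled summit (10%) and 1 of an IDR summit (2%). The shares over 16428 copies on the 6 arms were 4.71% and 0.889%. Summits were themselves denser in the clock windows, at 4.83 pooled and 1.07 IDR summits per 10 kb against 2.24 and 0.329. Whether copies lay closer to summits than this density gives was not tested. The per stretches are on the plus strand and the tim stretch on the minus strand, those of the genes, with CACGTG in capitals, and are shown so that the copies near and far from a candidate can be read side by side.

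tim candidate, chr2L:3507405-3507434: acgttgtgattaCACGTGagccgatttccc
per candidate, chrX:2684048-2684198: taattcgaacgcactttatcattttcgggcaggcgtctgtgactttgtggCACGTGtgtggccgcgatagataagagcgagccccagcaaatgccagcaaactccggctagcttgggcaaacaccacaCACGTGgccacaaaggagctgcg
per E-box nearest upstream of the TSS, chrX:2685038-2685067: aaagccgccgctCACGTGgcgaactgcgtg

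**Figure D4:**
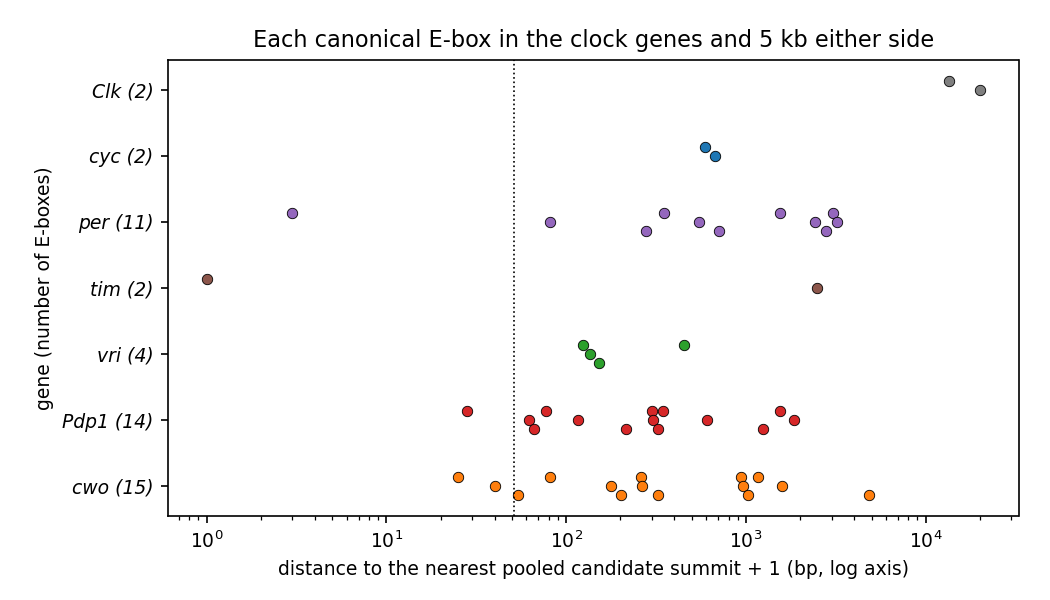
Distance from each of the 50 CACGTG copies in the clock windows to the nearest pooled candidate summit plus 1 bp, on a log x axis, 1 row per gene with its number of copies; the dotted line is at 50 bp. The copies left of the line are 1 of tim, 1 of per, 1 of Pdp1 and 2 of cwo.

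Other words were counted in the same windows. Within 50 bp of the 21 summits, 7 held any E-box CANNTG (33.3%, against 44.8% of all IDR summits and 43.7% of TSS windows) and none held CAGCTG (7.19% and 8.77%). The words of the VRI and PDP1 kind, TTATGTAA and TTACGTAA, were in none, and in 0.658% and 0.136% of all IDR summits and 0.353% and 0.0987% of TSS windows. The DREF word TATCGATA was in 1, the site beside Deaf1 (2.79% and 4.48%). The shorter CGATA, which it contains, was in the same single site (4.76%), against 20.2% and 23.6%. Core promoter motif 1, GGTCACACT (2.11% and 3.64%), and the Zelda word CAGGTAG (0.476% and 0.483%) were in none. CANNTG includes CACGTG and CAGCTG, so these counts overlap. At 13 of 21 sites none of the 9 words was found, where the share over all IDR summits was 41.7%.

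Genes that act on the clock from outside the loop were described in the same way from a list of 25. An IDR promoter summit was found at 10 of them, where the share over all protein-coding genes was 20.5%, and a pooled promoter candidate at 20, against 55.4%. A summit at any TSS counts, so genes with many start sites have more room for one. The list includes genes with many pooled candidates in their windows, such as Eip75B (83) and Mef2 (37). No share per TSS or for genes of like length is given for it, and an excess was not tested. Among kinases, 2 of 5 had an IDR promoter summit. They were sgg, the fly GSK3, which phosphorylates TIM (signal 332, rank 761), and dco, the casein kinase 1 known as doubletime, which phosphorylates PER (315, rank 838). CkIIbeta (124) and nmo (95.8) had weaker candidates, and CkIIalpha had none in its window. The nmo candidate is also within 500 bp of a TSS of Pop4.

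Among phosphatases 3 of 4 did: mts, the catalytic subunit of protein phosphatase 2A (644, rank 176), and its regulatory subunits tws (217) and wdb (157). The mts summit is also within 500 bp of a TSS of Rack1, and wdb was uneven, at rank 23403 in replicate 1 and 2988 in replicate 2. Pp1-87B had a candidate of 81.4. Of the genes of light input and protein turnover 1 of 5 did, the E3 ligase gene ctrip (353, rank 668, and 2 promoter summits). The photoreceptor gene cry had a candidate of 37.4, and jet and slmb, which encode F-box proteins acting on TIM and PER, had 106 and 97.2. The cry candidate had no match in replicate 2 and is also within 500 bp of a TSS of lncRNA:CR46393. That of slmb is shared in this way with CG5793. Usp8 had no promoter candidate.

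Of post-transcriptional regulators 1 of 3 did, Atx2 (149.7, rank 3860), and tyf (137) and lark (109) stood below the threshold. The tyf candidate ranked 4473, just outside the list, and is shared with Tip60, and the lark candidate is shared with eco. Neither Pdf, the neuropeptide of clock neurons, nor its receptor gene Pdfr had a promoter candidate, and Pdf had none in its window. Of transcription factor genes tied to clock neurons 3 of 5 did. They were Eip75B (275, 4 promoter summits and 20 IDR summits in its window), kay (237) and Mef2 (205, 2 promoter summits). Hr51 had no promoter candidate, Fer2 had one of 53.3, and the output gene to had one of 42.6.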

How the data were processed

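ChIP-seq peak lists of 2 replicates were used, with coordinates on dm6 per the labels and per the deposited readme texts. The authors called candidates on each replicate and on their pool, each against 1 control library, and derived the IDR list from these, per the deposited readme texts; no aligner, caller or threshold is named there or in the labels. Chromatin was sheared by sonication, size range 200 to 800, per the labels. The deposited signal value ranks peaks within a list. The deposited −log10 q-value is tied over all IDR peaks and was not used for ranking. Depth is unknown.

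Summits, counted from 1, were set against Ensembl 115 genes (BDGP 6.54, without transposable elements) and the RefSeq Release 6 genome, whose arms hold every pooled peak. A replicate peak is matched when it overlaps by at least 1 bp, taking the nearest summit. Members, lists and motifs were chosen with earlier results of these data known. Named are the 7 genes, all IDR sites in their windows, neighbours that place a site, the list of 25, and up to 2 genes most alike per bound member. Weaker candidates besides the strongest were named after their values were seen. With 1 group no test was made. Alternatives covered windows, flanks, matching, peak strength and each replicate alone. Calculations used scipy 1.17.1, pandas 2.3.3 and numpy 2.4.6 under Python 3.11.15, figures matplotlib 3.10.9, and the functions were tested on simulated data.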

Additional observations from a re-analysis of the deposited data

How the results depend on the processing

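Promoter summits at 3 of the 7 clock genes became 6 over all pooled candidates and stayed at 3 with windows of 200 and 1000 bp. Among the IDR peaks above the list's median signal they were at 2, Pdp1 and cwo, and with replicates left out the count ran from 3 to 4. Of the 21 IDR summits in the windows, 7 were left among the stronger IDR peaks, and the count lay between 15 and 23 for gene bodies alone and flanks of 2 and 10 kb, and between 21 and 22 with a replicate left out. The 95 pooled candidates ranged from 77 to 124. The 21 sites matched in both replicates became 15 with a reciprocal overlap of 50%, 18 with summits within 100 bp and 14 among the strongest of each replicate. The 1 IDR site with CACGTG became 3 within 100 bp of the summit, 0 within 25 bp, and 2 with either replicate left out. The 10 listed pathway genes with a promoter summit became 20 over all pooled candidates, and otherwise ran from 8 to 11. Pearson's r over the 21 sites was 0.363 without the strongest site, and the cause of this and the other differences was not tested. Whether a gene lies just above or below the IDR threshold, as for tim and cyc, depends on the list. No paired analysis was possible because there is 1 group and no test was made.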
